A study of Mus musculus with 8 samples.

Results

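Granins and the enzymes that process neuropeptides were followed from neural stem cells (NSCs) to the neurons made from them. The 10 genes were taken from a fixed list by symbol: the granin family genes Scg2, Scg3, Scg5, Chga, Chgb, Pcsk1n and Vgf, and the peptide-processing enzyme genes Pcsk2, Cpe and Pam. The array's platform table paired 10 of the 25697 probes with 8 of these genes, out of 16593 genes with a probe, and paired none with Pcsk2 or Cpe, which were not analysed here. RNA was hybridised to Illumina bead arrays (MouseRef-8 v2.0), where a probe's value is the mean brightness of its beads. There were 5 NSC arrays and 3 neuron arrays, all of strain C57BL/6. The NSCs came from mouse embryonic stem cells and grew in Euromed-N with N2, FGF2 and EGF. They were negative for Tau-RedStar, a red fluorescent reporter under the neuronal Tau promoter. The neurons were NSC progeny kept for 4 days in N2B27, a serum-free differentiation medium, then replated in Neurobasal with B27. They were sorted by flow cytometry for RedStar, to collect cells in which the Tau promoter had driven the reporter.

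Granins are acidic secretory proteins that aggregate with peptide hormones in the trans-Golgi network and are packed into dense-core granules, the vesicles from which neurons and endocrine cells release peptides. Inside the granule, prohormone convertases cut precursors after basic residues, carboxypeptidase E trims the exposed basic residues, and the enzyme encoded by Pam amidates the peptide's end. Several granins are themselves precursors of active peptides, and many of their genes are known targets of the repressor REST.

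Scg2, Scg3, Chgb and Pcsk1n were higher in neurons, and Scg5, Chga, Vgf and Pam stayed at or near background. On the background-corrected scale Scg2 was at least 15.8-fold higher, Scg3 at least 4.49-fold and Chgb at least 2.09-fold, each being at background in every NSC array. These are bounds under that correction alone. Without it the log2 differences were smaller, at 3.02, 1.57 and 0.68. Pcsk1n rose by 1.41 on the log2 scale. Of the 8 members with a probe, these 4 passed the filter on dim probes, which kept probes detected (p below 0.01) on 3 arrays or more, and all 4 were called higher. In limma, 4788 of 7407 tested genes or 64.6% were called at an adjusted p below 0.05, 35.4% higher and 29.2% lower. All 4 got past that filter only because of the neuron arrays, since Scg2, Scg3 and Chgb were detected on no NSC array and Pcsk1n on 1. Their direction was thus fixed: the filter would have removed them had they been low in neurons. Their count is therefore a description.

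**Figure D1:**
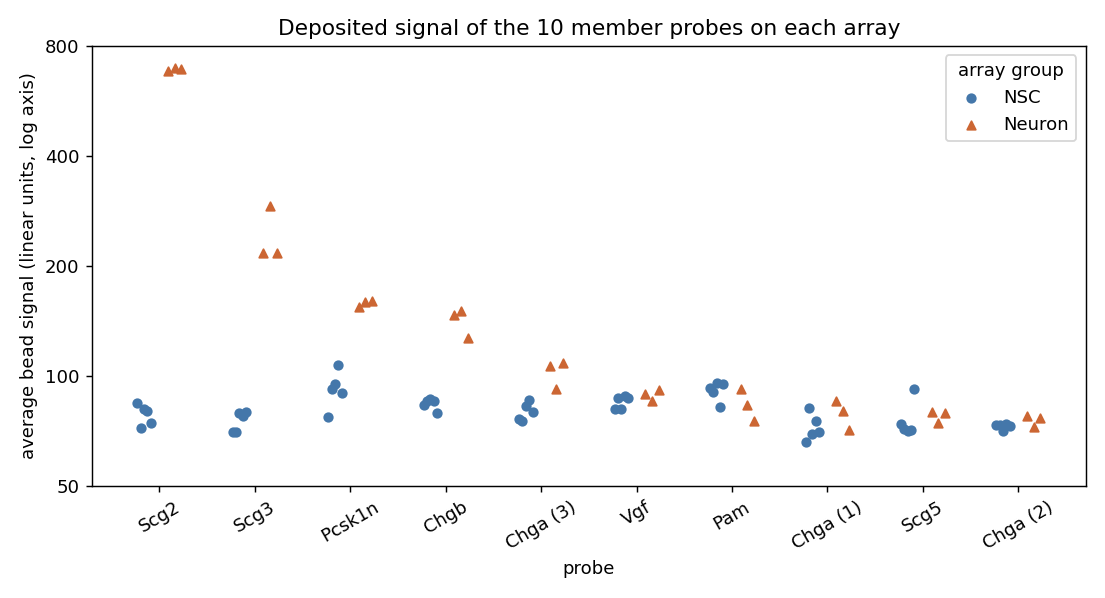
Average bead signal of each of the 10 member probes (log axis, linear units), with circles for the 5 NSC arrays and triangles for the 3 neuron arrays; Chga has 3 probes, numbered. The neuron arrays of Scg2 lie between 685.1 and 697.9 and its NSC arrays between 72.1 and 84.4, while for Scg5, Vgf and Pam the groups overlap.

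Scg2 encodes secretogranin II, the precursor of secretoneurin. Its probe read 84.4, 72.1, 81.1, 79.9 and 74.1 on NSC arrays 1 to 5, and 685.1, 697.9 and 693.8 on neuron arrays 1 to 3. No NSC array was above background, and the neuron arrays lay close together, far from every NSC array. After background correction and normalization the log2 level was 4.59 ± 0.17 (SD, n = 5) in NSCs and 9.18 ± 0.07 (SD, n = 3) in neurons. The fitted difference was 4.58 (SE 0.11, limma adjusted p = 6.91e-11), higher in 3 of 3 neuron arrays.

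Scg3 encodes secretogranin III, which binds chromogranin A and cholesterol in the granule membrane. Its probe read 69.9, 70.3, 78.9, 77.6 and 79.4 in NSCs, and 216.1, 291.4 and 217.2 in neurons. Neuron array 2 was the highest and the other neuron arrays were nearly equal, and again no NSC array was above background. The log2 level went from 4.50 ± 0.08 (SD, n = 5) to 7.36 ± 0.24 (SD, n = 3), a fitted difference of 2.86 (SE 0.12, limma adjusted p = 3.26e-09).

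Chgb encodes chromogranin B, a major soluble protein of the granule core. Its probe read 83.0, 85.2, 86.2, 85.1 and 78.9 in NSCs, and 146.4, 150.1 and 127.2 in neurons. All NSC arrays were at background and all neuron arrays above it, with neuron array 3 the lowest of them. The log2 level went from 4.77 ± 0.12 (SD, n = 5) to 6.25 ± 0.12 (SD, n = 3), a fitted difference of 1.48 (SE 0.11, limma adjusted p = 3.79e-07).

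Pcsk1n encodes proSAAS, a granin-like protein that inhibits the convertase made by Pcsk1. Its probe read 76.9, 92.0, 94.8, 107.3 and 89.5 in NSCs, and 154.3, 159.2 and 160.3 in neurons. It was the one tested member above background in an NSC array, NSC 4, and that array still lay below every neuron array. The log2 level went from 5.11 ± 0.39 (SD, n = 5) to 6.53 ± 0.12 (SD, n = 3), a difference of 1.41 (SE 0.20, limma adjusted p = 8.32e-05). Its partner Pcsk1, which carries out the first cuts in many precursors, has 1 probe, which read 67.5 to 77.1 over the 8 arrays and was above background on none.

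**Figure D2:**
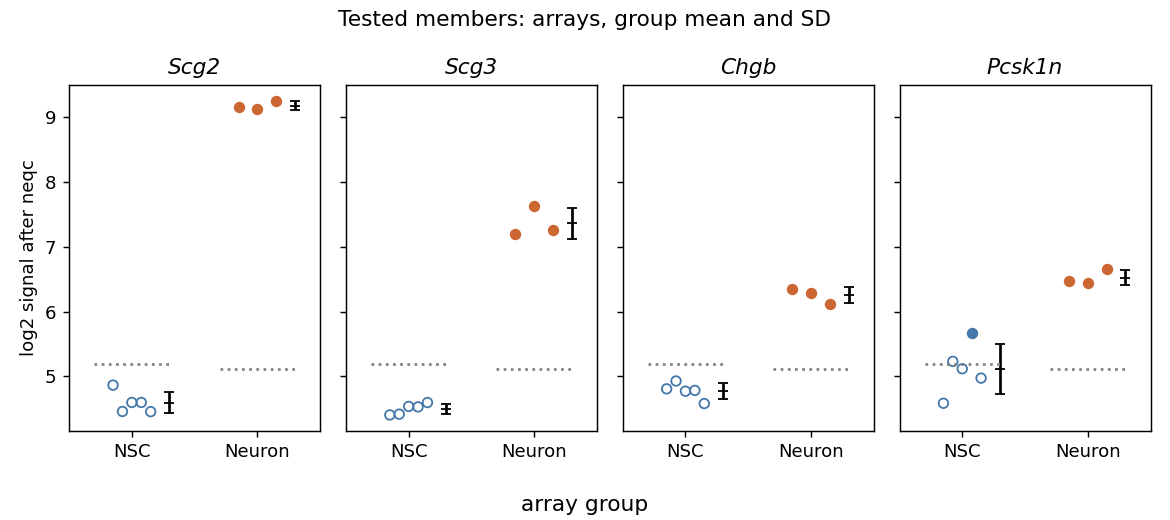
Log2 signal after neqc of the 4 tested members on each array, filled where the probe was above background and open where it was not; black marks give the group mean and SD, and dotted lines the mean, over a group's arrays, of the lowest log2 signal of any detected probe. Every neuron array is above every NSC array, and among NSC arrays only NSC 4 for Pcsk1n is filled.

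The groups' arrays did not overlap for any of the 4 tested members, and the same held for 61.1% of all genes tested. All these sizes depended on how background was removed, because the probes are dim. Without background correction the differences were 3.02 for Scg2, 1.57 for Scg3, 0.68 for Chgb and 0.70 for Pcsk1n, and the same with the authors' deposited values. With an offset of 50 they were 3.40, 1.81, 0.85 and 0.87. The folds written as "at least", here and for other genes, are therefore bounds on the corrected scale with an offset of 16 and not under other background corrections.

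The remaining granin probes were near background in both groups. Chga encodes chromogranin A, which gives rise to vasostatin and other peptides. The brightest of its 3 probes read 75.9, 75.3, 82.8, 85.9 and 79.6 in NSCs, and 106.2, 91.7 and 108.0 in neurons. The groups did not overlap, but only neuron arrays 1 and 3 were above background, so the probe did not reach the tested set. Its log2 level was 4.63 ± 0.11 (SD, n = 5) and 5.38 ± 0.37 (SD, n = 3), or 0.75 higher in neurons (0.93 without neuron array 2, and 0.33 without background correction). With no filter on dim probes its limma adjusted p was 0.00268. The other Chga probes, with differences of 0.15 and 0.08, were above background on no array, at 65.7 to 81.7 and 70.6 to 73.6 in NSCs and 70.9 to 85.0 and 72.4 to 77.4 in neurons.

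Vgf encodes a neurotrophin-induced granin whose peptides act on energy balance. Its probe read 81.1, 87.0, 81.1, 87.9 and 86.6 in NSCs, and 89.1, 85.2 and 91.4 in neurons, with only neuron array 3 above background. Scg5 encodes the chaperone that keeps the convertase made by Pcsk2 inactive until it reaches the granule. Its probe read 73.6, 71.4, 70.7, 71.2 and 92.2 in NSCs, and 79.3, 74.4 and 79.1 in neurons, and was above background on no array. The groups overlapped for both genes. With no filter, the limma adjusted p was 0.535 for Vgf (difference 0.13, SE 0.12) and 0.955 for Scg5 (difference 0.02, SE 0.16). These values do not show that either gene was unchanged, and a fall from background could not have been measured.

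Pam was the one processing enzyme among the members with a probe. The probe read 92.3, 90.1, 95.2, 82.0 and 95.1 in NSCs, and 91.9, 82.9 and 75.1 in neurons. The groups overlapped, and only NSC 5 was above background. The neuron mean was lower by 0.32 on the log2 scale (difference -0.32, SE 0.15, limma adjusted p = 0.191 with no filter), which did not pass.

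The promoters of the 4 called members are shown because these genes were higher in the same arrays. Sequences are those of RefSeq on GRCm38.p6, which had entries for 8 of the 10 members, from 250 bases before the annotated start to 30 bases from the start onwards, written 5′ to 3′ on the gene's own strand. Scg2 lies on the minus strand at chr1:79439997-79440276, Scg3 on the minus strand at chr9:75684027-75684306, Chgb on the plus strand at chr2:132781392-132781671 and Pcsk1n on the plus strand at chrX:7919572-7919851. Capitals mark the cAMP response element TGACGTCA, its core TGACG where that stands alone, and the left arm of the REST-binding element, TTCAGCACC, each on either strand.
Scg2: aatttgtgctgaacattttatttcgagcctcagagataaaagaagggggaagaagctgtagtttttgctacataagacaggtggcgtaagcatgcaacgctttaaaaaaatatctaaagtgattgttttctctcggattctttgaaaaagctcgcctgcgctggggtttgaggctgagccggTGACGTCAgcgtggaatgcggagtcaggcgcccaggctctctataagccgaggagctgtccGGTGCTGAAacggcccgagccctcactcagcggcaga
Chgb: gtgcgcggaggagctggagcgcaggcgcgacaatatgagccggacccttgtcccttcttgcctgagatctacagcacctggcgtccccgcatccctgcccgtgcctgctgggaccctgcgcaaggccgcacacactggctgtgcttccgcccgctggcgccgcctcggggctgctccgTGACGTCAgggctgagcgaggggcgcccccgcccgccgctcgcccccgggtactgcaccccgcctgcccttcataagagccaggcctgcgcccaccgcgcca
Scg3: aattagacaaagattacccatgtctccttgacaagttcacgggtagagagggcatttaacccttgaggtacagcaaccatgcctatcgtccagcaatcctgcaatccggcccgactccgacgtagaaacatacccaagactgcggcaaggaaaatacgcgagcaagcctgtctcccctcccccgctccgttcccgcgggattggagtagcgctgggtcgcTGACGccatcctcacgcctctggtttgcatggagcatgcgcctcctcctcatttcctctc
Pcsk1n: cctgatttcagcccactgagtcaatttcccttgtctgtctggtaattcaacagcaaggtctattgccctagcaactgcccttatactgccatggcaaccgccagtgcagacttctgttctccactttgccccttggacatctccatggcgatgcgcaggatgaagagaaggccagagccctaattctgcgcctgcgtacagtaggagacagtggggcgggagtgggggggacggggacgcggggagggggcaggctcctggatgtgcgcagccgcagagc

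The full cAMP response element, which CREB family factors are known to bind, was found in the windows of Scg2 and Chgb, 68 and 72 bases before the start. These were the only 2 of the 8 members with a promoter entry, and 1.74% of all 32851 promoter windows of that length held it. The core TGACG, which the full element contains on both strands, was found in 6 of the 8 members (Scg2, Chgb, Scg3, Chga, Scg5 and Pcsk2) and in 19.9% of all windows. The left REST arm was found in the Scg2 window alone among the members, beginning 7 bases before the start and running into it, and in 0.335% of all windows. The Pcsk1n window held none of these letters. Matches of letters do not show that a factor binds there.

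Most precursors of the peptides that such granules carry were not above background. Of 69 neuropeptide and peptide hormone genes, 55 had a probe and 46 of these, including Npy, Sst, Vip, Cck, Tac1 and Pomc, were above background on no array. Of the 5 tested, 1 rose, 2 fell and 2 did not pass, with a median difference of 0.03. The called share was 60%, against 64.6% of all genes tested. Of all 16593 genes with a probe, 7407 were tested. Bdnf, a neurotrophin stored in dense-core vesicles, read 173.4 to 197.6 in NSCs and 670.0 to 705.6 in neurons and rose by 2.05 (SE 0.10, limma adjusted p = 1.46e-08) on 1 probe, its other two probes being above background on no array. Cort, the precursor of cortistatin, was at least 1.16-fold lower in neurons, where it was at background on every array. It passed the filter on dim probes through NSC arrays alone, which fixed its direction. Its call was lost without NSC 1, 2 or 3, when the probe no longer passed the filter. Nucb1, which encodes the calcium-binding protein nucleobindin, fell, at -0.80 (SE 0.11, limma adjusted p = 9.82e-05). Its dimmer probe, at -0.49, did not pass (limma adjusted p = 0.0943).

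Other processing enzymes and helpers, a list that also holds peptidases of other compartments such as lysosomes, changed in both directions. Of 31 such genes 25 had a probe and 13 were tested, of which 2 rose, 6 fell and 5 did not pass, with a median difference of -0.19. The called share was 61.5%, against 64.6% of all genes tested. The convertase genes Furin and Pcsk7, whose products act in the Golgi and constitutive pathway, rose by 0.55 (SE 0.10, limma adjusted p = 0.000466) and 0.41 (SE 0.11, limma adjusted p = 0.00676). A dimmer Furin probe, at 0.11, did not pass (limma adjusted p = 0.559), and with the mean of its probes Furin rose by 0.33. Pcsk7 was 0.65 with median scaling. Prcp, a carboxypeptidase of lysosomes, fell, at -1.65 (SE 0.09, limma adjusted p = 4.97e-08). Cpd, a relative of Cpe that works in the trans-Golgi network, fell, at -0.97 (-0.50 without background correction), and so did the peptidase gene Ece2, at -0.69.

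Genes of dense-core vesicle formation, transport and release also changed in both directions. Of 57 genes 49 had a probe and 29 were tested. Of these 15 rose, 6 fell and 8 did not pass, with a median difference of 0.40. The called share was 72.4%, against 64.6% of all genes tested. Vamp2, the vesicle SNARE of regulated release, read 245.7 to 286.6 in NSCs and 675.4 to 781.0 in neurons and rose by 1.43 (SE 0.11, limma adjusted p = 7.66e-07). Rims2, a scaffold of release sites, rose by 1.34. Syt11, a synaptotagmin that does not bind calcium, rose on each of its 3 probes, by 2.34, 1.47 and 1.31. The last is its brightest, which took the same normalized value of 14.64 on all 3 neuron arrays, so its size is less certain. Sorcs1 and Sorl1, sorting receptors of the Golgi and endosomes, were at background on every neuron array. They passed the filter on dim probes through the NSC arrays alone, which fixed their direction. On the corrected scale they were at least 4.63-fold and 3.53-fold lower, with log2 differences of -1.27 and -1.02 without background correction. Cadps2, which primes dense-core vesicles for release, fell, at -0.85 (-0.56 without background correction). The granule membrane genes Ptprn and Ptprn2 and the priming gene Cadps were above background on no array, at 73.9 to 84.2, 58.0 to 78.7 and 69.8 to 83.7. With median scaling 3 genes of this list were called lower in place of 6.

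**Figure D3:**
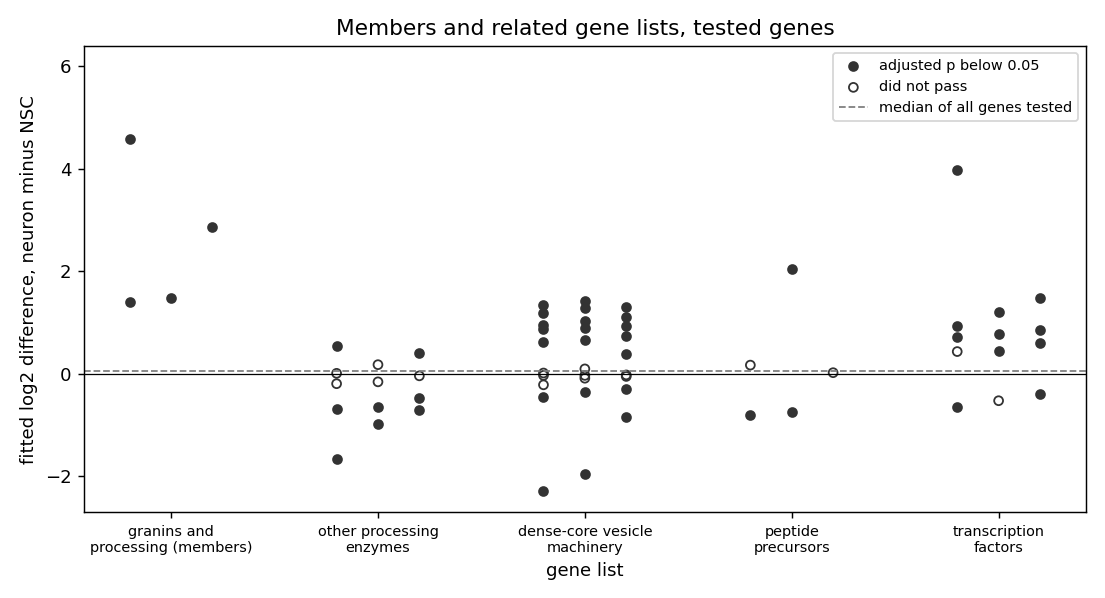
Fitted log2 difference, neuron minus NSC, of each tested gene among the members and in 4 related lists; filled points passed an adjusted p of 0.05 in limma, open points did not, and the dashed line is the median of all genes tested, 0.06. Fitted values of genes at background in 1 group are no bounds. The 4 members shown are all above 1, while the other lists hold points on both sides of 0. Sorcs1, Sorl1 and Cort passed the filter through NSC arrays alone, which fixed their side of 0. The members passed the filter on dim probes only because of the neuron arrays, which fixed their side of 0. This contrast is therefore no result about them.

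Among transcription factors, coactivators and corepressors listed for granin gene control, 13 of 21 with a probe were tested. Of these 9 rose, 2 fell and 2 did not pass, with a median difference of 0.72. The called share was 84.6%, against 64.6% of all genes tested. Activators and repressors are counted together here. Myt1, a zinc finger factor of neuronal differentiation, rose by 3.98 (SE 0.11, limma adjusted p = 2.11e-10). Insm1, a zinc finger factor of neuroendocrine cells and newborn neurons, rose by 1.48 (SE 0.13, limma adjusted p = 2.29e-06, or 0.82 without background correction) and Jun by 1.21. Fos fell, at -0.64 (SE 0.14, limma adjusted p = 0.00190). Rcor1, a corepressor partner of REST, fell, at -0.39 (SE 0.10, limma adjusted p = 0.00642), but was -0.23 without background correction, and -0.19 and not called with median scaling (limma adjusted p = 0.116). The other Rcor gene of this list, Rcor2, went the other way. Named after its values were seen, it rose by 0.93 (SE 0.13, limma adjusted p = 9.95e-05). Rest has 1 probe, which read 70.7 to 80.5 and was above background on no array. Creb1, named after its values were seen, rose by 0.44 (SE 0.13, limma adjusted p = 0.00944). Its relatives in this list, also named afterwards, did not rise. Crem did not pass (difference -0.52, SE 0.21, limma adjusted p = 0.0532), and Atf1 was above background on no array.

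Over the 8 arrays the genes outside the list whose pattern was most like that of Scg2 were Cxxc4, Dcaf5 and Podxl2 (Pearson r = 0.9995, 0.9993 and 0.9992). The arrays fall into their groups of 5 and 3, so this likeness describes mainly the step between groups.

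Markers of other cells were read beside these values. Of 11 neuron markers 5 were tested and all rose, 3 of them at background in every NSC array, among them Mapt, on whose promoter the cells were sorted. Those 3 passed the filter on dim probes through the neuron arrays alone, which fixed their direction. All 259 tested genes that passed in this way were called higher. The brightest of the 4 Mapt probes was at least 17.1-fold higher on the corrected scale, and its difference of 4.64 was 3.09 without background correction and 2.99 when both tested probes were averaged. Its other tested probe rose by 1.34, and the remaining Mapt probes were above background on no neuron array. The neuron markers Tubb3, Stmn2, Snap25, Elavl3, Elavl4 and Nefl were not above background on any array. Of 8 tested NSC markers 6 fell, 1 rose and 1 did not pass. The summed signal of the 9 NSC markers with a probe was 18632 to 21063 in NSCs and 7204 to 8162 in neurons. Oligodendrocyte lineage markers moved with the granins: of 5 tested 4 rose, 2 of them at background in every NSC array, and the summed signal of 7 with a probe was 10074 to 13351 in NSCs and 15282 to 15752 in neurons, with Mbp and Mog at background throughout. Of 3 astrocyte markers tested 2 fell and 1 did not pass. The summed signal of the 7 with a probe was 1861 to 2296 in NSCs and 596 to 612 in neurons, Gfap, Aqp4 and Apoe being at background. Of the neuroendocrine markers Insm1 was the one tested, and Th, Dbh, Pnmt, Phox2a, Chrna3, Gata3 and Hand2 were at background on every array. The summed signal of the 9 with a probe was 689.0 to 721.2 in NSCs and 754.9 to 845.2 in neurons. That sum includes Insm1, which alone read 97.3 to 115.9 in NSCs and 182.4 to 207.6 in neurons. The microglial markers Cx3cr1, Ptprc, Itgam and C1qa were at background too, and the summed signal of that list was 371.7 to 409.0 and 383.1 to 406.5. Aif1, the 1 microglial marker tested, was above background on 3 of 5 NSC arrays and 1 of 3 neuron arrays. It did not pass (difference -0.08, SE 0.13, limma adjusted p = 0.631). The part of these cell types in the granin values was not tested. In bulk RNA a larger share of expressing cells and more RNA per cell cannot be told apart.

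**Figure D4:**
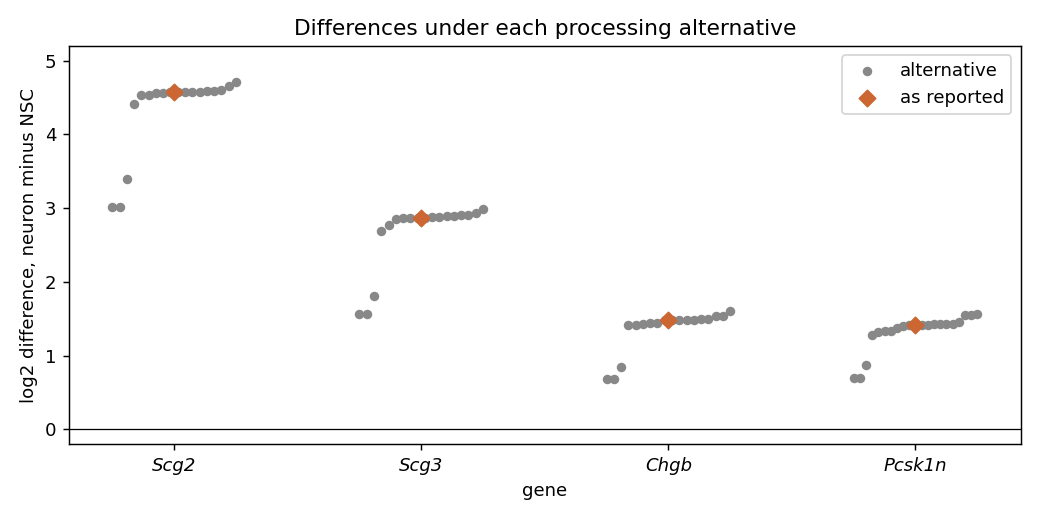
Log2 difference, neuron minus NSC, of the 4 tested members as reported (diamonds) and under each alternative in which the gene was tested (circles, 18 for Scg2, Scg3 and Chgb and 21 for Pcsk1n). All points are above 0; the lowest of each gene come from leaving out background correction or from the authors' values, and the next from an offset of 50.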

How the data were processed

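Per the file headers, the authors deposited an average bead signal per probe (a linear intensity) and a detection score, a fraction from 0 to 1, so 1 minus it served as detection p. The authors also deposited log2 values. Quantile normalization of the uncorrected log2 signals gave the same values to within 5.00e-09, and the submitters' processing notes name limma. Total RNA was amplified and biotin-labelled, per the labels' protocols. The scanner's software is not given in these sources.

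Signals were corrected and normalized with neqc (offset 16, quantile) in limma 3.58.1 under R 4.3.3. The 10499 probes with detection p below 0.01 on at least 3 of 8 arrays were fitted with lmFit and eBayes on group alone, and p-values adjusted by Benjamini-Hochberg over all of them at 0.05. A gene is its brightest tested probe. Where a gene was above background in 1 group alone, "at least N-fold" sets the bright group's mean against the mean, per dim array, of the higher of its own value and the lowest detected value. Symbols come from the platform table (23978 probes with 1 gene, 0 with several, 1719 with none; 23962 matched by identifier to the reference table). Across arrays the median signal was 80.3 to 84.7 and 36.5% to 39.7% of probes were detected; the number of arrays limits precision. All arrays were on 1 chip, NSCs at the first 5 positions, and position, culture and sorting cannot be told apart from group. The labels do not say whether replicates were grown separately; p-values reflect only sample-to-sample spread, possibly technical.

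Members and lists were chosen with earlier results of these data known. Named were all members, Pcsk1, Rest, Mapt, Ptprn, Ptprn2 and Cadps, and per list the 3 called genes with the largest rise and fall. Same-numbered arrays did not deviate together (correlations over genes of -0.0173, -0.00428 and 0.0127). This gave no sign that the numbers pair them but cannot exclude it, so the main fit used no pairing. The fit was tested on simulated signals. Alternatives were other background correction, normalization, filters, variance models, array weights, averaging a gene's probes, the authors' values, a replicate block and leaving out each array.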

Additional observations from a re-analysis of the deposited data

Results flagged for a closer look

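For the 10 member probes, log2 signals after neqc were checked over the 5 NSC arrays. The gap of the outermost array to its neighbour, as a share of the range, exceeded the critical value of 0.71 for 2 probes. The ratios below belong to that log2 scale, not to the bead signals. Chance flags about 1 in 20 groups. For Scg5 NSC 5 stood above the others, at 5.09 against 4.36 to 4.49 (ratio 0.826). The bead signals were 92.2 against 70.7 to 73.6, and the detection p of NSC 5 was 0.01003. For Pam NSC 4 stood below the others, at 4.67 against 5.13 to 5.21 (ratio 0.851). The bead signals were 82.0 against 90.1 to 95.2. Neither probe was tested in the comparison.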

How the results depend on the processing

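The 4 called members kept their direction and their call under every alternative in which they were tested, with differences of 3.02 to 4.71 for Scg2, 1.57 to 2.99 for Scg3, 0.68 to 1.60 for Chgb and 0.70 to 1.56 for Pcsk1n, and highest adjusted p-values of 1.00e-06, 6.07e-06, 8.40e-05 and 0.000928. Except with no filter on dim probes, the filter had fixed that direction in advance. The authors' values repeat the fit without background correction and are no separate check. Apart from leaving out neuron arrays, the count of called members was 4 in the alternatives other than these: it was 0 with detection on all 8 arrays, where no member was tested, and 5, with Chga added, under no filter (0.75, adjusted p = 0.00268) and without neuron array 2 with detection on 2 arrays (0.93, adjusted p = 0.000102). It ranged from 1 to 4 when 1 array was left out, being 1 without neuron array 1, 2 or 3, when Pcsk1n alone passed the filter. With detection required on 2 arrays it was 4, 5 and 4. Median scaling left 3 dense-core vesicle genes and 1 gene of the transcription factor list called lower, against 6 and 2. It moved the median of all genes from 0.06 to 0.23 and the share of called genes that were higher from 54.8% to 66.1%. Peptide precursors called lower numbered 1 with detection on all 8 arrays and 1 to 2 with 1 array left out. Those called higher numbered 2 with no filter and without neuron array 2 with detection on 2 arrays, in the first case through Nppa (0.65, adjusted p = 0.00365). The replicate block gave 4 called members and differences of 4.54, 2.91, 1.42 and 1.55 for Scg2, Scg3, Chgb and Pcsk1n, and 2361 genes higher and 1971 lower in all. Without background correction 8 of 20 other named genes moved by over 1.5 times. Probes near background limit what can be seen of Chga, Vgf, Scg5 and Pam.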
